A study of Mus musculus with 10 samples.

Results

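The 10 genes described here encode 6 guanylate-binding proteins (GBPs: Gbp2, Gbp3, Gbp5, Gbp6, Gbp7 and Gbp9) and 4 immunity-related GTPases (IRGs: Igtp, Irgm1, Irgm2 and Iigp1). They were taken by gene symbol from a table of 20813 genes, and all 10 were found. The table holds RNA sequencing of leukemic spleens from C57BL/6 mice, 5 labelled Sirt1-deleted and 5 control. After sub-lethal irradiation, the mice received T-ALL cells, from a leukemia of T-cell precursors, by intravenous injection. In both groups these cells carried the conditional knockout of Sirt1, which encodes a protein deacetylase. The first group was given 3 mg tamoxifen per mouse in corn oil by intraperitoneal injection and the second corn oil alone, so tamoxifen exposure and Sirt1 deletion cannot be told apart. The promoter that drives the recombinase, the number of primary leukemias and the age of the mice are not given in the sources used here. As nothing there says whether the samples stem from separate leukemias, p-values measure only the spread between these samples, which may be technical.

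GBPs and IRGs are families of large GTPases whose genes are switched on by interferons. Their proteins coat the membranes of vacuoles that hold intracellular microbes and help to break them open. Iigp1 is an effector of this kind, whereas Irgm1, Irgm2 and Igtp sit on the cell's own membranes and hold the effectors in check. Interferon-gamma acts mainly through gamma-activated sites (GAS) in promoters, and type I interferons act mainly through interferon-stimulated response elements (ISRE), to which IRF9 binds. Both signals induce these families, and the transcription factor IRF1 also binds ISRE-like sites.

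The promoters are shown because the question put to these genes is whether their pattern resembles an interferon-gamma or a type I response. RefSeq promoter windows (GRCm38.p6, the assembly called mm10, from 250 bases before to 50 after the transcription start) were matched for 7 of the 10 genes, without Gbp6, Gbp9 and Iigp1. They were searched for an ISRE core, GAAANNGAAA or its reverse complement TTTCNNTTTC, and for a GAS, TTCNNNGAA, which reads the same on both strands. The stretches below run 5′ to 3′ on the strand of the gene, end before the RefSeq transcription start, and show matches to either motif in capitals. They lie at chr3:142496759-142496900 (plus strand) for Gbp5, chr3:142530220-142530302 (plus) for Gbp7, chr3:142559989-142560024 (plus) for Gbp3 and chr3:142620594-142620623 (plus) for Gbp2. Those of the IRG genes lie at chr11:48871425-48871460 (minus strand) for Irgm1, chr11:58199501-58199541 (plus) for Igtp and chr11:58214892-58214932 (plus) for Irgm2. In the GENCODE M21 annotation, from which the gene spans below are taken, the Gbp5, Irgm1 and Irgm2 stretches lie inside the gene. The Gbp2 stretch runs across the start of its gene there.
Gbp5: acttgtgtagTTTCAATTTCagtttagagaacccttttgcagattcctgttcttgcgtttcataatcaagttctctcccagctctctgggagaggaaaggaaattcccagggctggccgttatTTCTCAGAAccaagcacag
Gbp7: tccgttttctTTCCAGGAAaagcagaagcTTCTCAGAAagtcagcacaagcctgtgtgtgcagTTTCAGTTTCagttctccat
Gbp3: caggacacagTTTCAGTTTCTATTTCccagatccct
Gbp2: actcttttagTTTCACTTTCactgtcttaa
Irgm1: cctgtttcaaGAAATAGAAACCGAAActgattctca
Igtp: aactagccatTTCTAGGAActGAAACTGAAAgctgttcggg
Irgm2: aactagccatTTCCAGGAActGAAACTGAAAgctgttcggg

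All 7 matched promoters held an ISRE core, which 3.99% of the 27025 genes in the promoter table hold. A GAS was found in 4 of the 7 (Gbp5, Gbp7, Igtp and Irgm2), against 9.55% of all genes, and 0.614% of all genes hold both motifs. The Gbp3 and Irgm1 promoters each carried a pair of overlapping ISRE cores. Gbp5 has a further GAS that begins 245 bases before the start, outside the stretch shown. The Igtp and Irgm2 stretches were equal in 40 of 41 bases and differed by T14C, counted from 1 at the first base shown, inside the GAS. In both, the GAS ends shortly before the ISRE core, which begins 34 bases before the start in Igtp and 64 bases before it in Irgm2. A motif match describes the sequence and shows no binding.

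The authors' deposited values are DESeq-normalized counts per gene, called normalized counts below. Their sums were alike in all libraries as a result of the normalization, and the depth before it is unknown. Sirt1 itself did not separate the groups (1873 ± 146 in the labelled Sirt1-deleted and 1810 ± 62.5 in control libraries, SD, n = 5 each; limma adjusted p = 0.568), so the group is named by its label. These counts are per gene and from bulk spleen, and deletion in the transferred cells was not tested. The 9 listed T-lineage markers summed to 150533 to 161167 normalized counts in control and 166613 to 195655 in labelled Sirt1-deleted libraries, without overlap, with 2 called higher (Thy1 and Cd3d) and 2 lower (Cd5 and Notch1). Their median log2 difference was -0.04. The sums of 12 listed housekeeping genes did not overlap either (319691 to 346366 in control and 359469 to 430995 in labelled Sirt1-deleted libraries), with a median log2 difference of -0.05. Of these 12 genes 3 were called higher and 1 lower. Along the first principal component of all tested genes, labelled Sirt1-deleted libraries 10 and 11 lay nearest to the controls (9.41 and 12.9, where the other 3 lay at 39.2 to 52.1 and the controls at -46.1 to -22.0). Neutrophil markers moved with the groups: 11 of 12 were higher, and their summed level was 9007 to 12453 in control and 28521 to 97946 in labelled Sirt1-deleted libraries. Macrophage and monocyte markers did so too, with 11 of 14 higher and sums of 3471 to 3937 and 7074 to 12945. No marker of either list was at 0 in any library, and their part in the results below was not tested. Of the other marker lists, 3 of 8 tested dendritic-cell markers were called higher. The counts were 0 of 7 for natural killer and cytotoxic cells, 0 of 8 for B cells and 0 of 8 for erythroid cells. For endothelial and stromal cells 0 of 6 were called higher and 1 lower. Beside all these counts, 16.8% of all tested genes were called higher and 19.4% lower. In bulk tissue, more cells of a type and more RNA per cell cannot be told apart.

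Differences were tested with limma on log2(normalized count + 1) over the 15276 genes with a mean of at least 10, with Benjamini-Hochberg adjustment over all of them and a threshold of 0.05. Values are listed in the order of library numbers 2, 3, 4, 5 and 6 for controls and 7, 8, 10, 11 and 12 for labelled Sirt1-deleted samples. All 10 genes passed the filter, and each reached that mean in both groups. Of them 9 were called higher in the labelled Sirt1-deleted group by limma and 0 lower, and the remaining estimate was also above 0. Among all tested genes 36.1% were called, 16.8% higher and 19.4% lower (2562 and 2956 genes, or 3162 and 2272 after upper-quartile rescaling). The values of 6 members did not overlap between the groups, where this held in the same direction for 11.1% of all tested genes. The median log2 difference was 0.90 over the 10 members and -0.00014 over all tested genes.

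**Figure D1:**
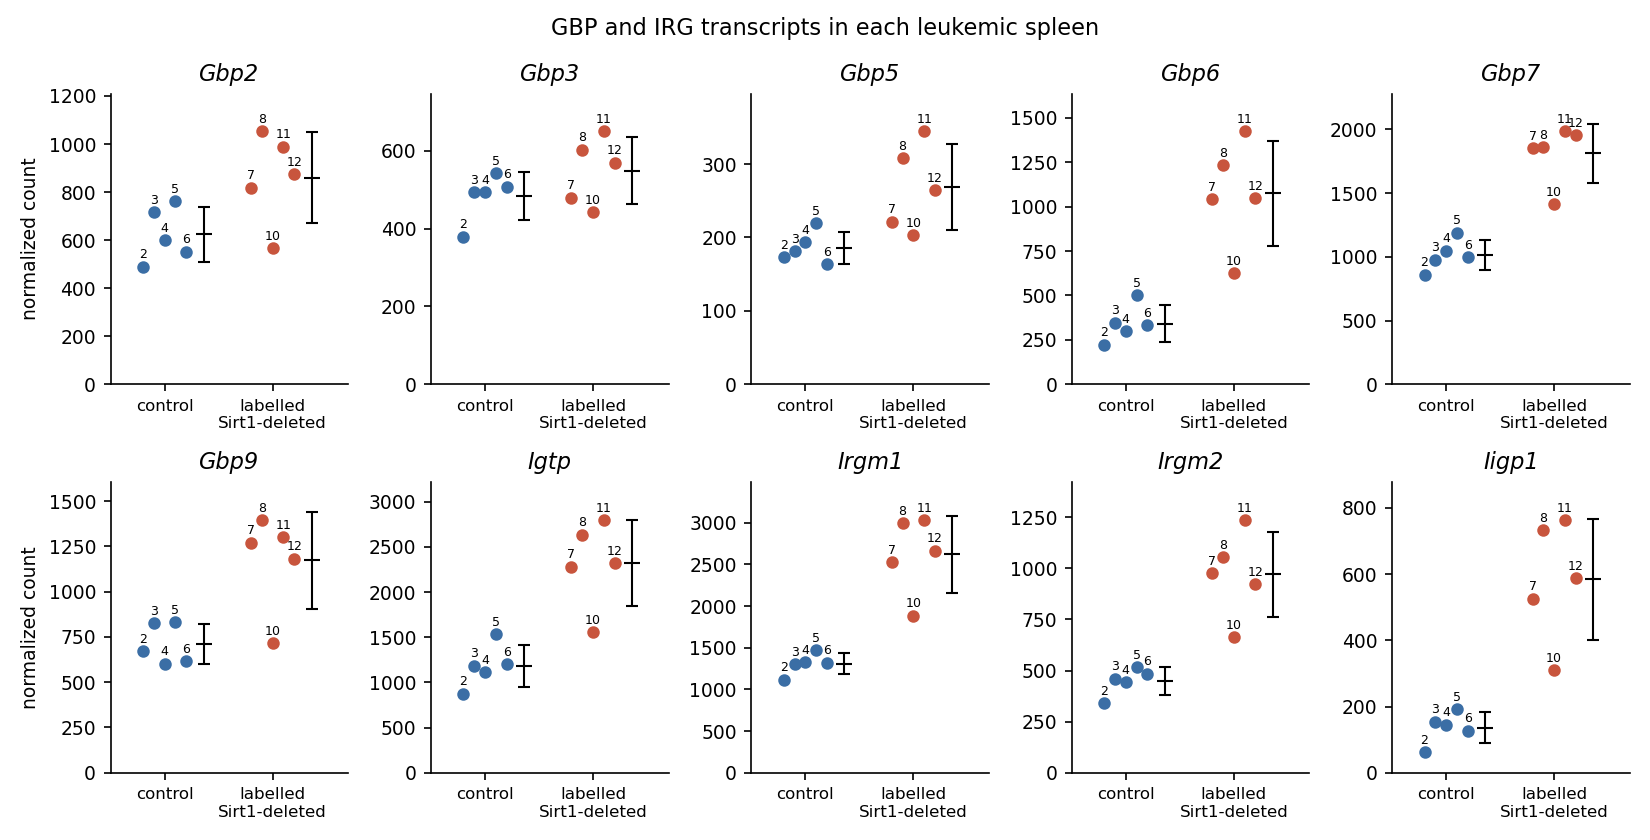
Normalized counts (vertical axis, linear, from 0) of the 10 GBP and IRG genes in each library; numbers beside points are library numbers, and bars show the mean and SD of 5 libraries. The groups do not overlap for Gbp6, Gbp7, Igtp, Irgm1, Irgm2 and Iigp1, and library 10 is the lowest of the labelled Sirt1-deleted group in every panel.

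The 4 IRG genes were all called higher and none overlapped between the groups. Iigp1, the effector GTPase, measured 63.1, 154, 145, 191 and 127 normalized counts in controls. In the labelled Sirt1-deleted libraries it measured 526, 732, 310, 764 and 587. Every value of the second group lay above every value of the first, with library 10 the lowest and control 5 the highest control. On the scale of log2(value + 1), used for all differences below, Iigp1 rose by 2.11 (SE 0.29, limma adjusted p = 0.000578), a ratio of means of 4.29, the largest difference among the 10 genes.

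Irgm1, a regulatory IRG of lysosomal and Golgi membranes, measured 1118, 1302, 1328, 1475 and 1323 in controls. In the labelled Sirt1-deleted libraries the values were 2524, 2997, 1884, 3035 and 2667. The groups were well apart, with a control SD of 127 and a labelled Sirt1-deleted SD of 465 (n = 5 each). Irgm1 rose by 0.99 on the log2 scale (SE 0.12, limma adjusted p = 0.000288).

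Irgm2, a second regulatory IRG, measured 339.8, 459.9, 443.1, 518.0 and 485.1 in controls and 977, 1056, 664, 1237 and 924 in labelled Sirt1-deleted libraries. The lowest labelled Sirt1-deleted library, 10, was above the highest control, 5. Irgm2 rose by 1.10 (SE 0.15, limma adjusted p = 0.000591).

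Igtp, also called Irgm3, is a regulatory IRG of the endoplasmic reticulum and lipid droplets. It measured 874, 1184, 1111, 1535 and 1205 in controls and 2283, 2636, 1556, 2799 and 2321 in labelled Sirt1-deleted libraries. The separation was narrow at its edge, where library 10 exceeded control 5 only slightly. Igtp rose by 0.97 (SE 0.16, limma adjusted p = 0.00132). Its annotated locus overlaps that of Irgm2 on the same strand, and 15.9% of its transcript 31-mers also occur in Irgm2 transcripts. The sum of both genes rose by 1.004 (SE 0.16, limma adjusted p = 0.000937), a sum chosen after the data were seen.

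Of the 6 GBP genes, 5 were called higher, and 2 of these did not overlap between the groups. Gbp6, a GBP of the chromosome 5 cluster (chr5:105270702-105293698), measured 224, 348, 298, 503 and 332 in controls. In labelled Sirt1-deleted libraries it measured 1042, 1234, 625, 1424 and 1046. The groups did not overlap, and the ratio of means was 3.15. Gbp6 rose by 1.65 (SE 0.23, limma adjusted p = 0.000535). This value is uncertain as that of a single gene, because 74.3% of its transcript 31-mers occur in other genes, chiefly Gm43302 (67.8%), which overlaps it, and Gbp10 (51.4%). The sum of these 3 genes rose by 1.69 (SE 0.22, limma adjusted p = 0.000411), a check also added after the data were seen.

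Gbp7, a GBP of the chromosome 3 cluster (chr3:142530342-142550149) needed for assembly of the phagocyte oxidase, measured 861, 977, 1048, 1189 and 999 in controls. In labelled Sirt1-deleted libraries it measured 1853, 1859, 1411, 1984 and 1957. Here 4 of the 5 labelled Sirt1-deleted values were close together, and library 10 lay below them but above every control. Gbp7 rose by 0.83 (SE 0.10, limma adjusted p = 0.000321).

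Gbp9 (chr5:105077630-105139539) measured 672, 825, 602, 832 and 617 in controls and 1270, 1396, 715, 1301 and 1182 in labelled Sirt1-deleted libraries. Library 10 fell among the controls, and the other 4 lay above all of them. Gbp9 rose by 0.70 (SE 0.17, limma adjusted p = 0.00706), a call that was lost with the exact rank-sum test (adjusted p = 0.0823). That test can pass a gene only where the groups do not overlap.

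Gbp5, a prenylated GBP that promotes inflammasome assembly (chr3:142493978-142522344), was lower in level. It measured 173, 181, 194, 220 and 163 in controls and 222, 308, 204, 345 and 265 in labelled Sirt1-deleted libraries. Library 10 was again inside the control range, and library 7 lay just above the highest control. Gbp5 rose by 0.51 (SE 0.15, limma adjusted p = 0.0190; exact rank-sum test adjusted p = 0.0512).

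Gbp2, a prenylated GBP that coats parasite vacuoles and bacteria (chr3:142620602-142638008), measured 490, 716, 600.2, 762 and 551 in controls. In labelled Sirt1-deleted libraries it measured 818, 1052, 567, 989 and 874. Library 10 was lower than 3 of the controls, and the other 4 were above all of them. The log2 difference was 0.45 (SE 0.16, limma adjusted p = 0.0472), close to the threshold. The call was lost under 4 alternatives, with adjusted p up to 0.124, and in 7 of the 10 fits that left out 1 library, with adjusted p up to 0.119. Without library 10 the difference was 0.59.

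Gbp3 (chr3:142560026-142573209) was the member whose difference did not pass. It measured 379, 495, 493, 543 and 508 in controls and 479.7, 603, 443, 650.2 and 570.1 in labelled Sirt1-deleted libraries. The groups overlapped broadly. The log2 difference was 0.18 (SE 0.12, 95% interval -0.09 to 0.44, limma adjusted p = 0.272), so a rise of the size seen for Gbp7 or the IRG genes lies outside its interval.

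The sizes of these differences ranged from 0.18 to 2.11. Gbp6 and Gbp3 were compared within each library, where scaling cancels. The ratio of Gbp6 to Gbp3 was 0.59 to 0.93 in controls and 1.41 to 2.19 in labelled Sirt1-deleted libraries. For the effector Iigp1 over the regulator Irgm1 the ratio was 0.056 to 0.13 in controls and 0.16 to 0.25 in labelled Sirt1-deleted libraries, also without overlap. Both pairs were chosen after their values were seen and are given as descriptions. Igtp over Irgm2 was 2.48 to 2.96 and 2.26 to 2.51, and these ranges overlapped slightly at their edge.

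Levels were also ordered per kilobase of the longest annotated transcript (GENCODE M21). In controls Igtp was highest at 585 ± 117 normalized counts per kilobase, followed by Irgm1 at 342 ± 33.2, Gbp2 at 248 ± 45.0, Gbp7 at 181 ± 21.2 and Gbp3 at 180.3 ± 23.0. Gbp9 at 141 ± 22.1, Irgm2 at 127 ± 19.1, Gbp6 at 80.4 ± 24.2, Gbp5 at 49.6 ± 5.77 and Iigp1 at 43.6 ± 15.1 came after them (SD, n = 5 throughout). Of the 9 pairs of neighbours in this order, 8 had overlapping ranges, and only Igtp and Irgm1 were apart. In the labelled Sirt1-deleted group Igtp (1147 ± 237) and Irgm1 (684 ± 121) kept the first places on this scale. Gbp6 had moved to 253 ± 69.8 and Iigp1 to 187 ± 58.3, while Gbp5, at 71.5 ± 15.6, was the lowest.

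**Figure D2:**
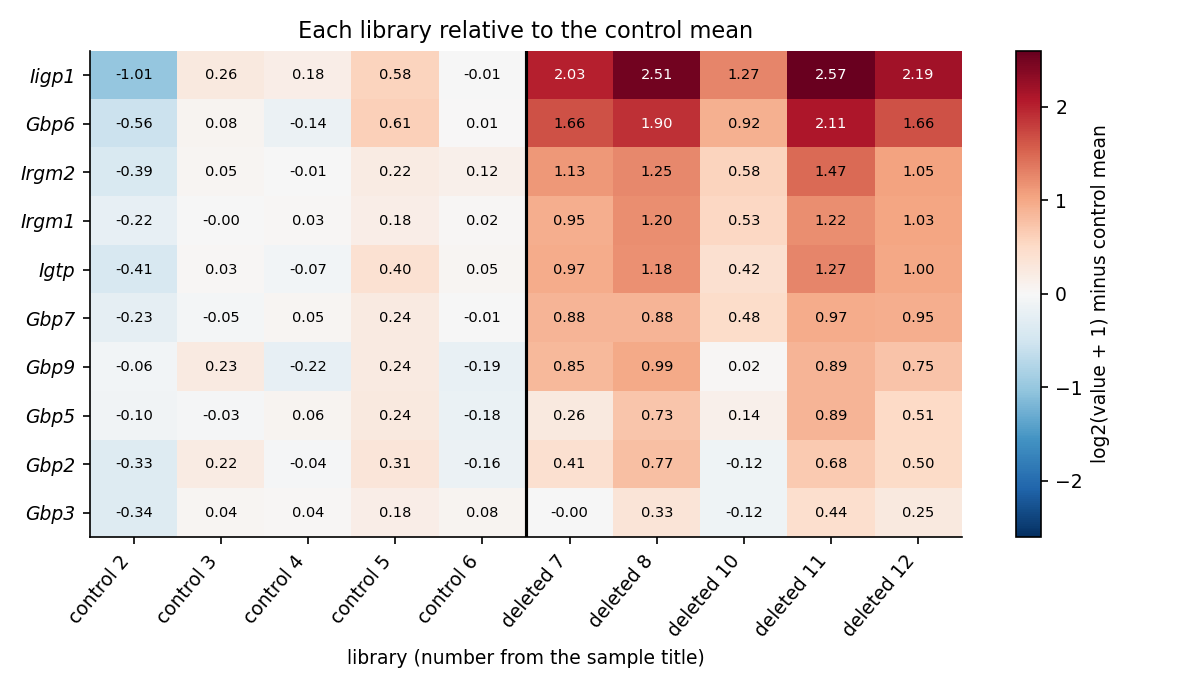
Log2(normalized count + 1) minus the control mean of the gene, for each gene (rows, ordered by the size of the difference) and library (columns). Library 10 has the lowest labelled Sirt1-deleted value in all rows, and control 5 is the highest control in all rows.

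The same libraries were high or low for most members. Labelled Sirt1-deleted library 10 was the lowest of its group for 10 of 10 members, where it was the lowest for 24.8% of all tested genes. Library 11 was the highest for 8 members and library 8 for the other 2, so library 11, though near the controls on the first principal component, was not low in these genes. Among controls, library 5 was the highest for 10 of 10 members (16.9% of all tested genes) and library 2 the lowest for 8 (23.9%). Within the group library 10 was the lowest for 12 of 12 neutrophil markers and 6 of 14 macrophage and monocyte markers (library 11 for 5), with median log2 differences from the control mean of 1.43 and 0.54, where that of the members was 0.45. In control 5 these medians were -0.12 and -0.04, and that of the members was 0.24. For the 31 tested type I response genes described below, library 10 was the lowest of its group in 27 (87.1%). Control 5 was the highest control in 19 of them (61.3%) and control 2 the lowest in 13 (41.9%). For the 26 tested interferon-gamma-type genes these counts were 11 (42.3%), 8 (30.8%) and 8 (30.8%). All of these are values of single libraries, and any link between the marker or response lists and the members was not tested. Leaving out library 10, the lowest for every member, can only raise the number without overlap, which became 9, where the share of all tested genes without overlap and higher rose to 15.4%. Without libraries 10 and 11 it was also 9, with 21.4% of all tested genes. In both cases 9 members were called higher, beside 2920 and 3203 of 15217 tested genes.

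The wider families were examined next. Of 22 further GBP, IRG and related very large GTPase genes listed, 16 were tested, 11 were called higher and 1 lower, with a median log2 difference of 0.82, beside 16.8% and 19.4% of all tested genes. Gbp11 and Gm4951 passed the filter only through the group where they were high, so their differences were built in. Of the other 14 genes 9 were called higher and 1 lower, with a median of 0.74. Among the remaining chromosome 5 GBPs, Gbp10 rose by 2.08 (SE 0.29, limma adjusted p = 0.000578), from 15.6 ± 6.43 to 67.1 ± 16.4. As a single gene it is uncertain, since 80.8% of its 31-mers occur in the more abundant Gbp6. Gbp8 rose by 0.89 (SE 0.22, limma adjusted p = 0.00874), and Gbp11 had 4.59 ± 4.12 normalized counts in controls against 18.5 ± 7.07. Gbp4 had a log2 difference of 0.47 (limma adjusted p = 0.0268), a call lost in 7 of the 10 fits without 1 library.

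Among effector IRGs outside the 10, Tgtp1 rose by 2.09 (SE 0.30, limma adjusted p = 0.000619) and Tgtp2 by 1.599 (SE 0.32, limma adjusted p = 0.00291). Their individual values are uncertain, since 83.2% of the 31-mers of Tgtp1 occur in Tgtp2. Gm12250 rose by 1.03, and Gm4951 had 4.65 ± 2.92 normalized counts in controls against 29.7 ± 6.48. Ifi47, the effector also called Irgd, had 1646 ± 149.9 normalized counts in controls and 2024 ± 399 in labelled Sirt1-deleted libraries, which did not pass (log2 difference 0.28, limma adjusted p = 0.0820). Irgq fell by 0.699 (SE 0.10, limma adjusted p = 0.000756), from 1139 ± 96.0 to 706 ± 108 without overlap, in the opposite direction to the members. It belongs to the IRG family by sequence.

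**Figure D3:**
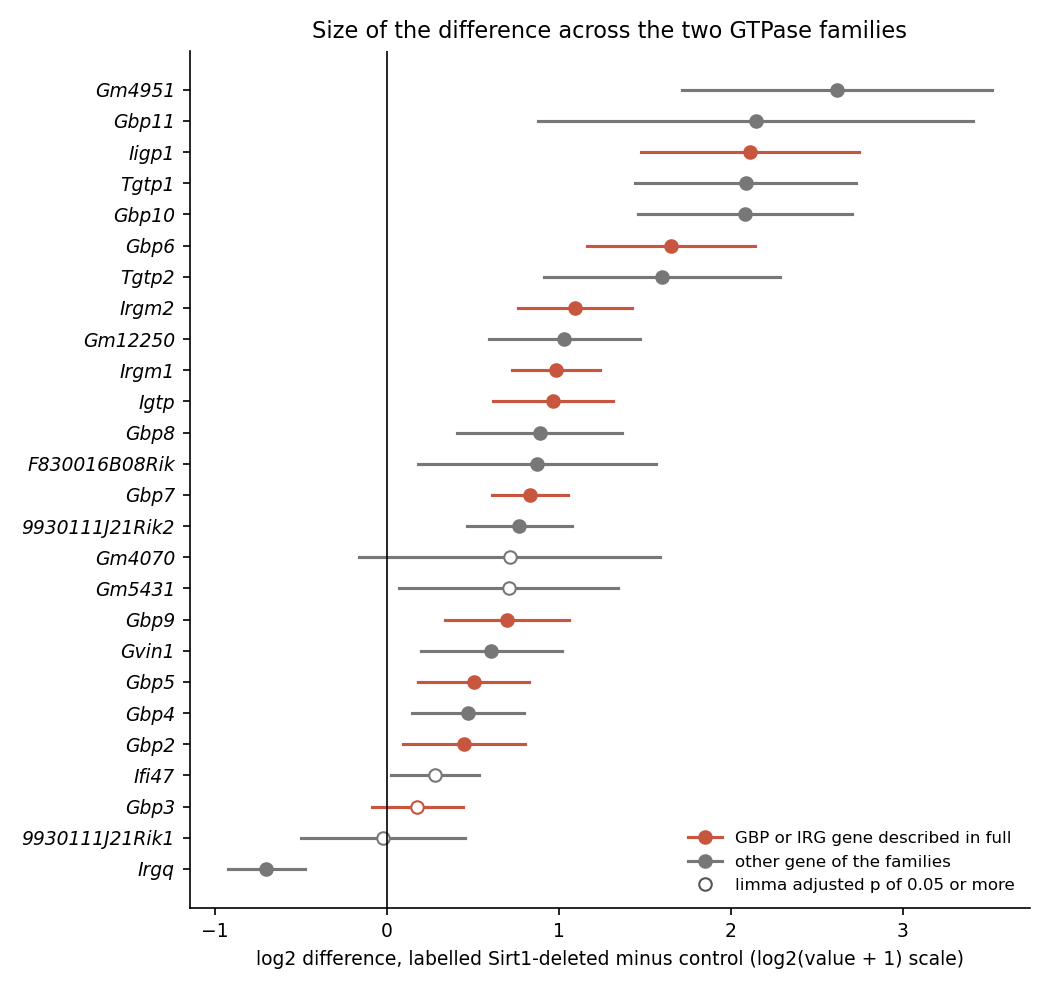
Log2 difference (labelled Sirt1-deleted minus control, on the log2(value + 1) scale) with its 95% interval from limma for the 10 members and the 16 other tested genes of the families; open circles did not pass. Estimates run from -0.70 for Irgq to 2.62 for Gm4951, a gene that passed the filter only through the group where it was high, and Gbp3 is the only open circle among the members.

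To set the members beside each kind of response, genes known chiefly as type I targets and genes known chiefly as interferon-gamma targets were listed. These lists were drawn up with earlier interferon results of these data known, many of their genes answer both interferons, and the difference between the lists was not tested. Of 31 tested type I genes, 28 were called higher and 0 lower, against the 16.8% of all tested genes called higher, and their median log2 difference was 1.61. Without labelled Sirt1-deleted library 11, and without libraries 10 and 11 together, 1 gene, Ifit2, was called lower (log2 differences -0.18 and -0.18, limma adjusted p = 0.0291 and 0.0333). The largest differences were those of Ifit1 (3.26), Ifit3 (3.24), Ifit3b (3.22), Oas2 (3.09) and Mx2 (2.72), which encode antiviral proteins. Ifit3b passed the filter only through the labelled Sirt1-deleted group, so its difference was built in, and 27 of the other 30 genes were called higher, with a median of 1.54. At the other end were Ifit2 (-0.12, not called), Eif2ak2 (0.44) and Ms4a4c (0.55, not called).

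Of 26 tested interferon-gamma-type genes, 10 were called higher and 0 lower by limma (13 and 0 at an unadjusted p under 0.05, 4 and 0 by the exact rank-sum test), with a median log2 difference of 0.36. Among all tested genes 16.8% were called higher by limma. By the exact rank-sum test 1691 of all 15276 tested genes were called higher, which is 11.1%. The list was not tested against these shares. Here too 1 gene, Wars, was called lower without library 11 (log2 difference -0.18, limma adjusted p = 0.0476) and without libraries 10 and 11 (-0.23, limma adjusted p = 0.00528). The largest differences were in genes of low level: Upp1 (1.64, limma adjusted p = 0.0825), the Fc receptor gene Fcgr1 (1.49), Slamf8 (1.08), H2-DMb1 (1.04) and Fgl2 (0.97). Upp1 and Slamf8 passed the filter only through the labelled Sirt1-deleted group, and 9 of the other 24 genes were called higher, with a median of 0.32. The smallest were Il12rb1 (-0.18), Wars (-0.13) and Plac8 (-0.10), none of them called with all libraries. Several of these genes are typical of macrophages, whose markers were also higher (7074 to 12945 against 3471 to 3937 summed normalized counts), and their part in these values was not tested. Ciita, the activator of MHC class II genes, measured 50.5 ± 13.7 in controls and 64.2 ± 26.2 in labelled Sirt1-deleted libraries (limma adjusted p = 0.473). Among the class II genes themselves, H2-Aa (0.71, limma adjusted p = 0.0200) and H2-Eb1 (0.56, limma adjusted p = 0.0400) were called higher, and H2-Ab1 (0.17) and H2-DMa (-0.06) were not called. The H2-Eb1 call was kept in 4 of the 10 fits without 1 library. The chemokine gene Cxcl9 measured 23.8 ± 2.91 and 38.8 ± 9.96 (limma adjusted p = 0.0370, lost in 8 of the 10 fits without 1 library). Ciita, the class II genes other than H2-DMb1, and Cxcl9 were singled out after their values were seen. Without control replicate 2, the count of called interferon-gamma-type genes was 6.

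**Figure D4:**
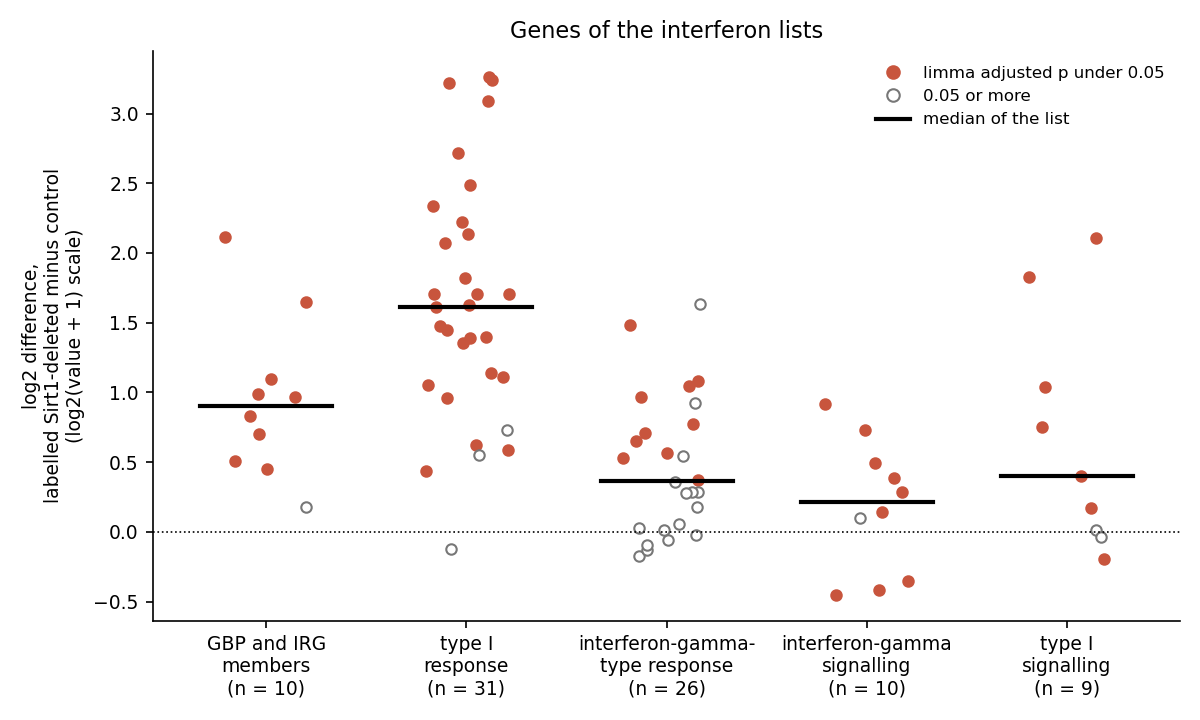
Log2 difference of each tested gene (points) in the 10 members and in 4 interferon lists, with the list median as a bar; open points did not pass limma's adjusted p of 0.05. The member median, 0.90, lies between those of the type I (1.61) and interferon-gamma-type (0.36) response genes.

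The same motifs were counted in the promoters of the response lists. An ISRE core was found for 14 of the 24 matched type I genes and for 1 of the 17 matched interferon-gamma-type genes. A GAS was found for 4 of the former and 5 of the latter. As shares, the ISRE core was held by 58.3% and 5.88% of the matched genes, against 3.99% of all genes in the promoter table. For the GAS the shares were 16.7% and 29.4%, against 9.55% of all genes. These counts were not tested against each other.

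The signalling genes upstream of the members were mixed. Ifng, the interferon-gamma gene itself, lay under the filter, at 4.44 ± 2.97 in controls and 7.57 ± 2.04 in labelled Sirt1-deleted libraries. Its groups overlapped, and in a fit without the filter its log2 difference was 0.77 (limma adjusted p = 0.178). The 7 type I ligand genes listed were not in the table of 20813 genes, so no values are given for them. Of the 10 tested interferon-gamma pathway genes, 6 were called higher and 3 lower, beside 16.8% and 19.4% of all tested genes. Those that fell encode the receptor chain Ifngr1 (by 0.42, limma adjusted p = 0.000390) and the kinases Jak1 (by 0.35, limma adjusted p = 0.00303) and Jak2 (by 0.45, limma adjusted p = 0.00163), each without overlap between the groups. The other receptor chain gene, Ifngr2, rose by 0.39 (limma adjusted p = 0.0211), with overlap between the groups. Socs3 rose by 0.92 (limma adjusted p = 0.00764), the largest difference of this list, without overlap. Ptpn2 rose by 0.14 (limma adjusted p = 0.0316), a call kept in 5 of the 10 fits without 1 library.

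Interferon regulatory factors were then examined. Irf9, which binds the ISRE in type I signalling, rose from 1283 ± 164 to 2650 ± 448 normalized counts (log2 difference 1.04, limma adjusted p = 0.000296), and its partner Stat2 by 0.40 (limma adjusted p = 0.00573). Irf7, which amplifies type I interferon production, rose by 2.11 (limma adjusted p = 3.52e-05). Irf1, the factor most closely tied to interferon-gamma, measured 3111 ± 237 and 3807 ± 542 (log2 difference 0.28, limma adjusted p = 0.0351), a call lost in 6 of the 10 fits without 1 library. The feedback inhibitor Socs1 rose by 0.49 (limma adjusted p = 0.00906), and Usp18, the inhibitor of type I signalling, by 1.83 (limma adjusted p = 0.000152). In all, 6 of the 9 tested type I pathway genes were called higher and 1, Ifnar1, lower, beside the same shares.

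The 5 genes whose profile over the 10 libraries was closest to the median profile of the members were Phf11c, Ifi35, Parp12, Irf9 and Parp14. Closeness was the root mean square distance of log2 values relative to the control mean, over 10742 genes with a mean of at least 100. The distances were 0.0437, 0.0827, 0.111, 0.114 and 0.126, where the median over those genes was 0.727. Phf11c, the closest, measured 260.5, 339, 324, 411 and 314 in controls and 605, 713, 431, 681 and 626 in labelled Sirt1-deleted libraries. It was lowest in library 10 within its group and highest in control 5 among controls. This follows from its choice by closeness over the same libraries and is not a separate result.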

How the data were processed

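RNA was taken from suspensions of leukemic spleen after lysis of red blood cells, and strand-specific libraries were sequenced, per the labels' protocols. The authors' deposited values are a DESeq-normalized signal per gene. The submitters' processing notes name kallisto 0.44.0, DESeq and build mm10. The transcript annotation, the strand setting, the summing to genes and any gene filter are not given in the sources used here. kallisto divides reads that fit several transcripts, so values of near-identical genes depend on one another. The values are not whole and no count model was used. Groups followed the genotype label, with 5 libraries each and 0 columns outside them.

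Log2(value + 1) of genes with a mean of at least 10 was fitted with limma 3.58.1 in R 4.3.3 (group as the only term, intensity trend), adjusted by Benjamini-Hochberg over all 15276 tested genes. Upstream depth is unknown, so no counting intervals are given. The fit was tested on simulated data. Alternatives were a pseudocount of 0.1 or 5, a mean filter of 1, of 50 or absent, upper-quartile and quantile scaling, limma without trend or with array weights, an exact rank-sum test and omission of libraries. Sequence sharing was counted as 31-mers of GENCODE M21 transcripts, promoters are from RefSeq.

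The members and gene lists were chosen with earlier results of these data known. Named were the 10 members, Sirt1, genes of the family and signalling lists, in other lists the 5 largest and 3 smallest differences, and the 5 closest profiles. A gene of the signalling lists is not reported here.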

Additional observations from a re-analysis of the deposited data

Results flagged for a closer look

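For each member and each tested gene of the family and signalling lists, the most extreme library of each group was compared with the next, as a share of the spread from lowest to highest. This ratio passed 0.71 in 6 of 90 sets, where chance at 1 in 20 gives 4.5.

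Labelled Sirt1-deleted library 10 stood below the rest of its group in 3 genes. Gbp7 measured 1411 normalized counts in it and 1853 to 1984 in the others (ratio 0.771). Irf9 measured 1879 against 2638 to 2944 (ratio 0.713), and Irf7 measured 1043 against 1815 to 2098 (ratio 0.732). In all 3 the library remained above every control.

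Control library 2 stood above the other controls in 3 signalling genes. Ifngr2 measured 683.7 in it and 590.7 to 608.7 in the others (ratio 0.806). Jak1 measured 9461 against 8336 to 8630 (ratio 0.739), and Ifnar2 measured 1527 against 1461 to 1477 (ratio 0.756). The same library was the lowest control for 8 of the 10 GBP and IRG members.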

How the results depend on the processing

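No paired analysis was possible because no library number occurs in both groups. Of 213 recomputed member differences, 0 changed sign, 200 kept their side of the threshold and 13 lost it, all of them in Gbp2, Gbp5 or Gbp9; the other 7 members kept their call, or for Gbp3 its lack, in every recomputation. The number of members called higher was 8 or 9 in the fits without 1 library and 6 with the exact rank-sum test. That test also gave 3659 called genes in all, 4 interferon-gamma-type genes and 6 other family genes, and it passes only genes without overlap at this sample size. A minimum mean of 50 gave 7 other family genes, with 11 in place of 16 tested. Without 1 library the count of interferon-gamma-type genes ran from 6 (without control replicate 2) to 12, and that of other family genes from 7 (without labelled Sirt1-deleted replicate 11) to 12; the cause was not tested. Type I genes called higher were 28 in every fit except a minimum mean of 50 (25 of 27 tested) and the exact rank-sum test (26). Upper-quartile rescaling shifted the median log2 difference of all genes to 0.058.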

Other observations

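GBPs and IRGs work with other proteins at vacuoles and inflammasomes, and 26 such partner genes were tested. Of these, 7 were called higher and 3 lower, with a median log2 difference of 0.04. That is 10 of 26 called in either direction, near the 36.1% of all tested genes. By direction, 16.8% of all tested genes were called higher and 19.4% lower. The list was not tested against these shares, and the genes below are given as values. The largest differences were in Il1b (1.54), Il18 (1.23), Lgals3 (1.16), Rnf213 (1.08) and Casp1 (1.07), all called higher. Rnf213, a giant ubiquitin ligase that coats intracellular bacteria, was at 3871 ± 391 normalized counts in controls and 8264 ± 1407 in labelled Sirt1-deleted libraries (SD over 5 libraries, limma adjusted p = 0.000152). Il1b, Il18, Lgals3 and Casp1 are also typical of myeloid cells, whose markers were higher in the same libraries, and their part in these values was not tested.

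The partner genes at the other end were the DNA sensor gene Aim2 (-0.45), the ubiquitin ligase gene Traf6 (-0.33) and Arhgdia (-0.19), all called lower, the last of them lost in 7 of the 10 fits without 1 library. The ubiquitin-like conjugation genes Atg3, Atg5, Atg7, Atg12 and Atg16l1, which direct GBPs and IRGs to vacuoles, had log2 differences from -0.12 for Atg7 to 0.11 for Atg16l1, and were singled out after their values were seen. By limma 0 of 5 were called, 0 of 5 had an unadjusted p under 0.05, and 0 of 5 were called by the exact rank-sum test. Atg16l1 was called under 1 other alternative, and the estimate of Atg3 changed sign under 1.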
